A study of Mus musculus with 16 samples.

Results

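Mitochondrial ribosomal proteins are the nuclear-encoded subunits of the ribosome inside mitochondria, and their transcripts were read here in mouse quadriceps muscle. The set comprised every gene whose symbol is Mrpl or Mrps followed by a number in the array's gene annotation, counting probe sets with a single symbol. It held 73 of the 17097 genes measured, 46 named Mrpl and 27 named Mrps, each represented by the brightest of its probe sets over the 16 arrays. RNA came from 16 mice, with 1 mouse per Affymetrix array and 4 mice in each of 4 groups. These were Mfn2 KO mice at 22 months (old KO), control mice at 22 months (old control), Mfn2 KO mice at 6 months (young KO) and control mice at 6 months (young control). Mfn2 encodes mitofusin 2, a protein of the mitochondrial outer membrane that joins mitochondria to each other. The strain, the promoter that drives the deletion and the cells it reaches are not given in the sources used here, and the animals' standard chow and housing were shared by all groups.

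Mitochondria translate the few proteins encoded by their own genome, all of them subunits of the respiratory chain and ATP synthase, on ribosomes of their own. The large subunit (proteins named Mrpl) forms the peptide bonds and the small subunit (named Mrps) reads the messenger RNA. Some of these proteins have counterparts in bacterial ribosomes and others occur only in mitochondria. The genes lie in the nucleus, and the transcription factors NRF1, GABPA and YY1 are known to act on many genes of this kind.

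RefSeq promoter sequences (GRCm38.p6, 250 bases before to 50 after the start) were at hand for 65 of the 73 genes. They were searched on both strands for GCGCATGCG (NRF1), CCGGAAGT (GABPA and other ETS factors) and AAGATGGCG (YY1). The first was found for 6 genes (9.23%, against 3.07% of the measured genes with a promoter), the second for 10 (15.4%, against 6.67%) and the third for 8 (12.3%, against 2.57%). At least 1 of them was found for 23 genes (35.4%, against 11.6% of 13605 measured genes and 7.48% of all 27025 genes in the promoter table). A gene with several promoters was counted once, if any of them held the motif. None of these strings of letters contains another. To show how such matches sit, 1 window is given for each motif, from genes whose values follow, with the motif in capitals and the strand that of the gene. The Mrpl36 window (chr13:73330919-73331038, plus strand) has YY1 letters on the opposite strand, starting 31 bases before the gene's start in the promoter table. The Mrpl33 window (chr5:31613861-31613980, plus strand) has GABPA letters 3 bases before the start. The Mrps18b window (chr17:35916571-35916690, minus strand) has NRF1 letters on the opposite strand, 224 bases before the start.
Mrpl36: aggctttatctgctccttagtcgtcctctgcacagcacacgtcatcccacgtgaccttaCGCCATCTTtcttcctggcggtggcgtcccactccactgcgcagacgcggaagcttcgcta
Mrpl33: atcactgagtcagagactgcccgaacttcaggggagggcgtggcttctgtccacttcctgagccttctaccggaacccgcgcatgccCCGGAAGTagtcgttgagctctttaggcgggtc
Mrps18b: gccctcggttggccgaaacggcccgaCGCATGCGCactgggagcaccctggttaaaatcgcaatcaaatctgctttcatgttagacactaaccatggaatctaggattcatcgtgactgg
These are matches of letters and not measured binding sites.

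The targeted gene, which checks the labels, came before the set. Mfn2 had log2 signals of 8.31, 8.01, 6.32 and 8.32 in old KO muscle (replicate numbers 1 to 4), against 8.52, 8.67, 8.34 and 9.18 in old control muscle. In young KO muscle it had 8.41, 8.49, 8.38 and 8.54, against 8.66, 9.05, 8.03 and 9.45 in young control muscle. The old groups did not overlap (log2 difference -0.94, exact two-sided permutation p = 0.0286, the smallest that 4 against 4 mice allow, and 0.0571 adjusted over 4 comparisons), while the young groups did (-0.34, exact p = 0.314). Old KO muscle also lay below young KO muscle without overlap (-0.71, exact permutation p = 0.0286, adjusted 0.0571). The old and young controls overlapped (-0.12, exact permutation p = 0.771). Where the probe set lies relative to the deleted part of the gene is not given, so its signal does not measure how much of the gene's function was lost, and a probe outside the deleted part would check nothing. In each of the 4 groups mouse 3 had the lowest Mfn2 signal and, as described below, also the lowest mean of the ribosomal protein transcripts. Old KO mouse 3 was the lowest of all in both. Mouse 3 was thus lowest in KO and control groups alike, but its Mfn2 gap was widest in old KO muscle (6.32, others 8.01 to 8.32). The part of the replicate number in that low reading was not tested.

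The arrays carried muscle RNA: the mean log2 signal of 10 fibre markers such as Acta1 and Ckm lay from 12.2 to 12.3 in old KO, 12.1 to 12.3 in old control, 12.2 to 12.3 in young KO and 12.0 to 12.3 in young control muscle. Slow fibre markers (5 genes) spanned 6.68 to 10.5, 6.04 to 10.1, 7.46 to 10.5 and 5.65 to 9.48 in the same order of groups. The mean of 7 macrophage markers was 5.84 to 6.35, 5.66 to 6.57, 5.27 to 6.12 and 5.27 to 5.75, again in that order. Fibroblast markers (5 genes) averaged 7.79 ± 0.18 in old KO and 8.27 ± 0.23 in young KO muscle. Adipocyte markers (4 genes) averaged 7.49 ± 0.61 and 6.51 ± 0.29, and red cell markers (2 genes) 9.61 ± 0.62 and 9.04 ± 0.15 (SD, n = 4 each). In old and young control muscle the means were 7.75 and 8.03 for fibroblast, 7.10 and 7.69 for adipocyte, and 9.54 and 8.94 for red cell markers. Fibroblast and red cell markers thus moved with age in the same direction in both genotypes, and adipocyte markers in opposite directions. These shifts were not tested. The part of fibre type or of other cells in the results below was not tested, and in whole muscle a lower signal can come from fewer cells of a type or from less RNA per cell.

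The 73 transcripts were all measured without a filter on level, and their mean log2 signals ran from 5.21 for Mrpl47 to 10.86 for Mrpl42. Signals of different probe sets also reflect how well each probe binds, so these levels were not ranked against each other. The genes lie on 17 chromosomes, with 9 of them on chromosome 11 and 0 on X or Y. More than 1 probe set was present for 38 of the genes.

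The mean over the 73 transcripts was 8.25, 8.32, 7.77 and 8.03 in old KO muscle, for replicate numbers 1 to 4. It was 8.19, 8.38, 8.00 and 8.08 in old control, 8.34, 8.32, 8.02 and 8.12 in young KO, and 8.29, 8.33, 7.94 and 8.15 in young control muscle. The 4 groups averaged 8.10 ± 0.25, 8.16 ± 0.17, 8.20 ± 0.16 and 8.18 ± 0.18 in the same order (SD, n = 4 each), and they overlapped throughout. In every group numbers 1 and 2 were the high mice and number 3 was the lowest.

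**Figure D1:**
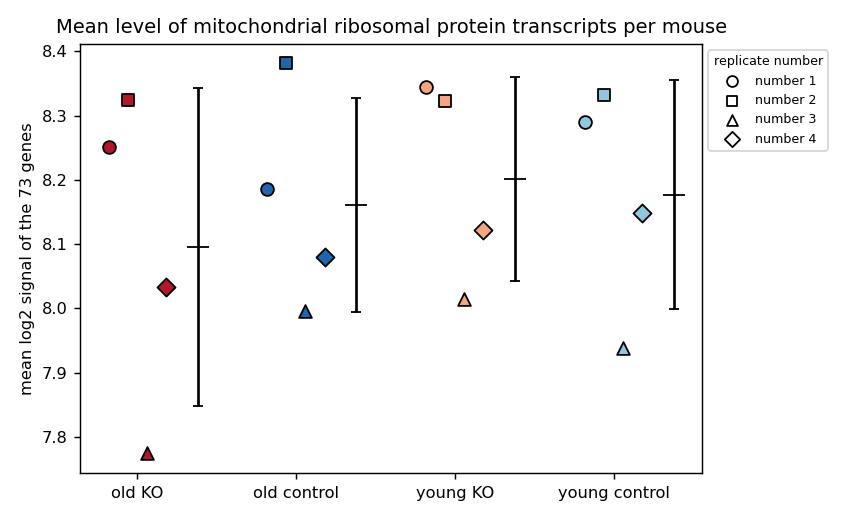
Mean log2 signal of the 73 mitochondrial ribosomal protein transcripts (y axis) in each of the 16 mice, by group (x axis). Symbols mark replicate numbers 1 to 4, and black bars give group mean ± SD (n = 4). The groups overlap, number 3 is lowest in each, and the lowest mouse of all is old KO number 3 at 7.77.

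Replicate number accounted for more of the variation of these transcripts than group did. In the median member, 63.3% of the sum of squares over the 16 arrays lay between replicate numbers and 11% between the 4 groups, and the number exceeded the group for 65 of the 73. This was not particular to them, since the medians over all genes were 61.5% and 9.58%. Numbers 1 and 2 exceeded numbers 3 and 4 for 72 of 73 transcripts, by a median log2 difference of 0.27, close to the 0.29 of all genes at or above the median level. The exception was Mrpl42, at -0.027, and Mrps5 had the widest gap, at 0.86. The meaning of the number is not given in the sources used here, but same-numbered arrays of different groups deviated together. Xist read 3.53 to 4.12 in numbers 1 and 2 and 5.47 to 6.26 in numbers 3 and 4, and the SD over all probe sets of an array was 1.90 to 1.94 in numbers 1 and 2 and 1.71 to 1.81 in numbers 3 and 4. The pyruvate carboxylase control, read as 3′ minus 5′ log2 signal, had a range of -0.35 to -0.082 in numbers 1 and 2, below the range of -0.0068 to 0.23 that numbers 3 and 4 had. The part of these quantities in the pattern was not tested.

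**Figure D2:**
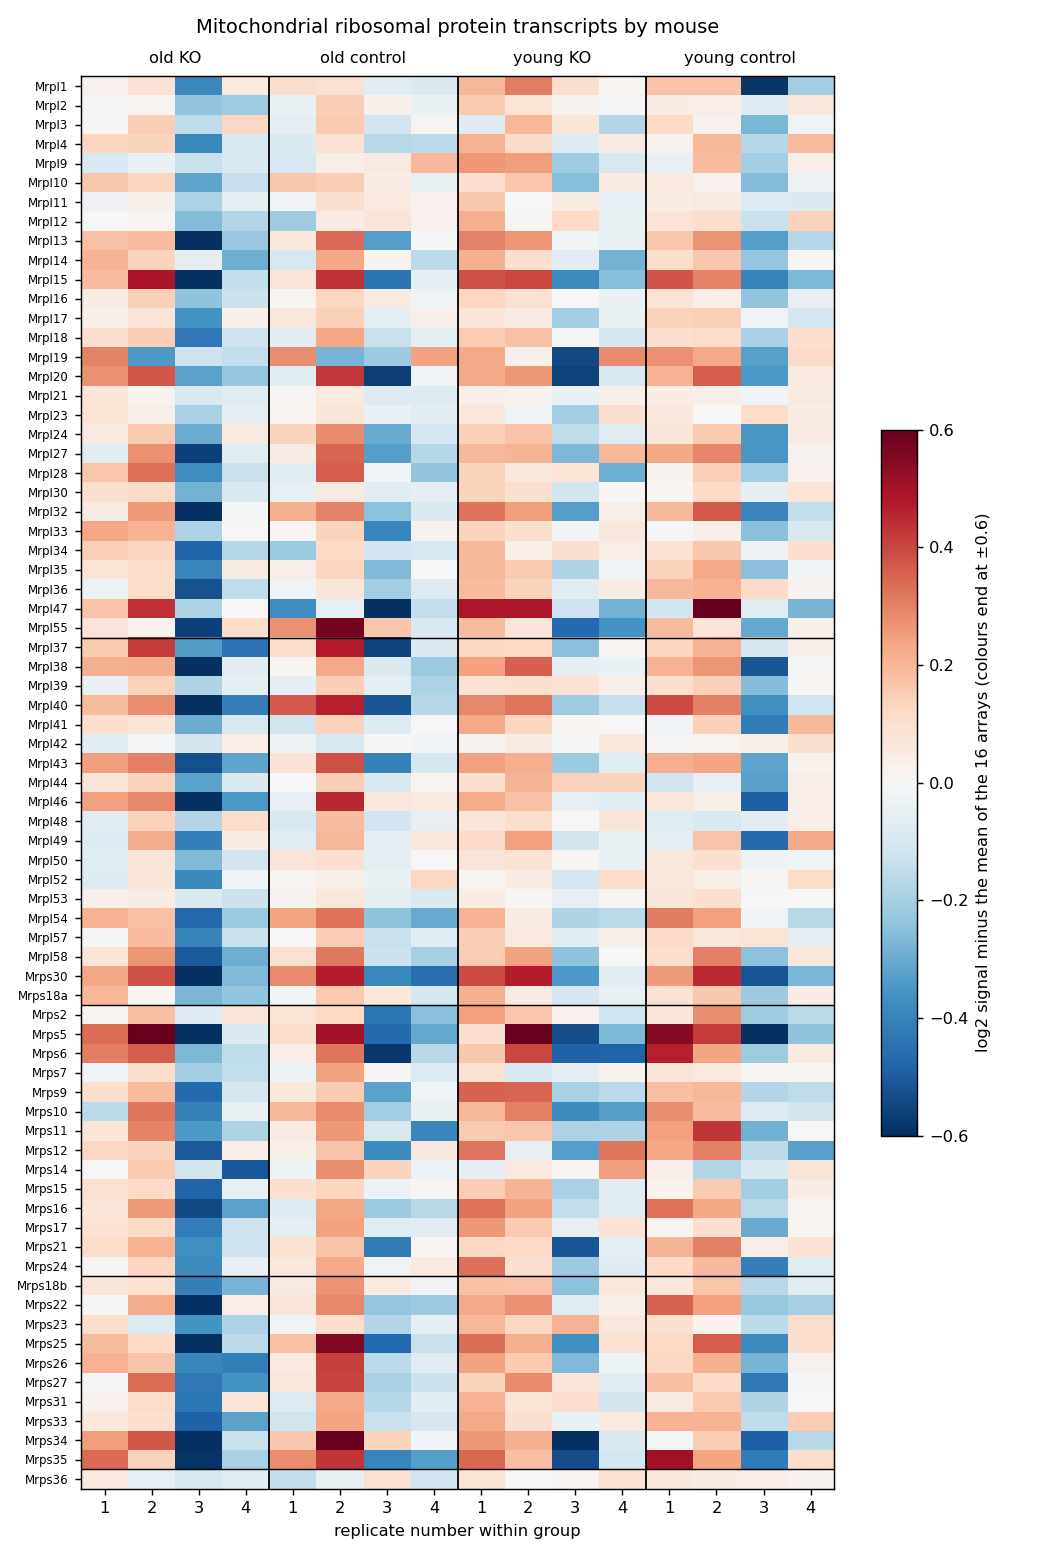
Each row is 1 of the 73 genes and each column 1 mouse. Colour gives the log2 signal minus that gene's mean over the 16 arrays (red above, blue below, colours end at ±0.6), and horizontal lines separate, from the top, large-subunit proteins with bacterial counterparts, large-subunit proteins found only in mitochondria, the same 2 classes of the small subunit, and Mrps36. Columns of number 3 are mostly blue in all groups, most of all in old KO muscle, and numbers 1 and 2 are mostly red.

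The first question was how these transcripts differed with age in muscle of Mfn2 KO mice. In KO muscle 66 of the 73 were lower at 22 months than at 6 months. The median log2 difference was -0.11, which is small, against -0.0083 over all genes and -0.029 over genes at or above the median level. None passed the test (limma, Benjamini-Hochberg over all genes, adjusted p under 0.05), 0 of 73, where 0.0175% of all genes passed. With replicate number as a block the count was again 0, against 0.0234% of all genes. At an unadjusted p under 0.05, 2 members (2.74%) were lower, Mrps23 and Mrpl2, against 2.59% of all genes in either direction and 1.25% in the lower direction. With the replicate block 14 members (19.2%) met that unadjusted limit, all of them lower, against 10.2% of all genes in either direction and 5.88% in the lower direction.

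Mrps23 encodes a small-subunit protein found only in mitochondria, and had the smallest p in this comparison. Its log2 signals were 8.75, 8.57, 8.29 and 8.46 in old KO muscle, against 8.85, 8.77, 8.86 and 8.72 in young KO muscle. Old KO mouse 1 lay within the young range and the other 3 lay below it. The difference was -0.28, or 1.21-fold lower (SE 0.11, limma adjusted p = 0.9999, and SE 0.083 with adjusted p = 0.281 under the replicate block). Its other probe sets gave -0.37 and -0.21.

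Mrpl2, a large-subunit protein with a bacterial counterpart near the site of peptide bond formation, read 9.36, 9.37, 9.11 and 9.13 in old KO muscle, against 9.50, 9.43, 9.37 and 9.34 in young KO muscle. Numbers 3 and 4 of the old mice lay below every young mouse, and numbers 1 and 2 did not (difference -0.17, SE 0.078). Mrpl36, a small zinc-binding protein of the large subunit whose promoter window is shown above, read 8.41, 8.55, 7.92 and 8.29, against 8.63, 8.58, 8.38 and 8.48 in young KO muscle, and the groups overlapped (-0.23, SE 0.12). Mrps33 of the small subunit read 9.20, 9.23, 8.65 and 8.81, against 9.36, 9.23, 9.09 and 9.19, a pattern in which old mice 3 and 4 were again the low ones (-0.25, SE 0.14). Mrpl12, the counterpart of the bacterial stalk protein that recruits translation factors, differed by -0.18 (SE 0.10). At the other end Mrps6 was higher by 0.16, with an SE of 0.24.

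Compared within replicate numbers, the median member differed by -0.090 in number 1, 0.0052 in number 2, -0.24 in number 3 and -0.099 in number 4. In number 2 the set was therefore level, with 34 of 73 lower, and in number 3 it was lowest, with 66 of 73 lower. In all 4 numbers 19 members were lower (26.0%, against 10.8% of all genes) and 0 were higher (8.92% of all genes), although 0 members had groups that did not overlap, against 0.871% of all genes in the lower direction. Without old KO mouse 3 the median over the 73 was -0.012 and 41 were lower, and with the replicate block as well it was -0.067 and 58 were lower.

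**Figure D3:**
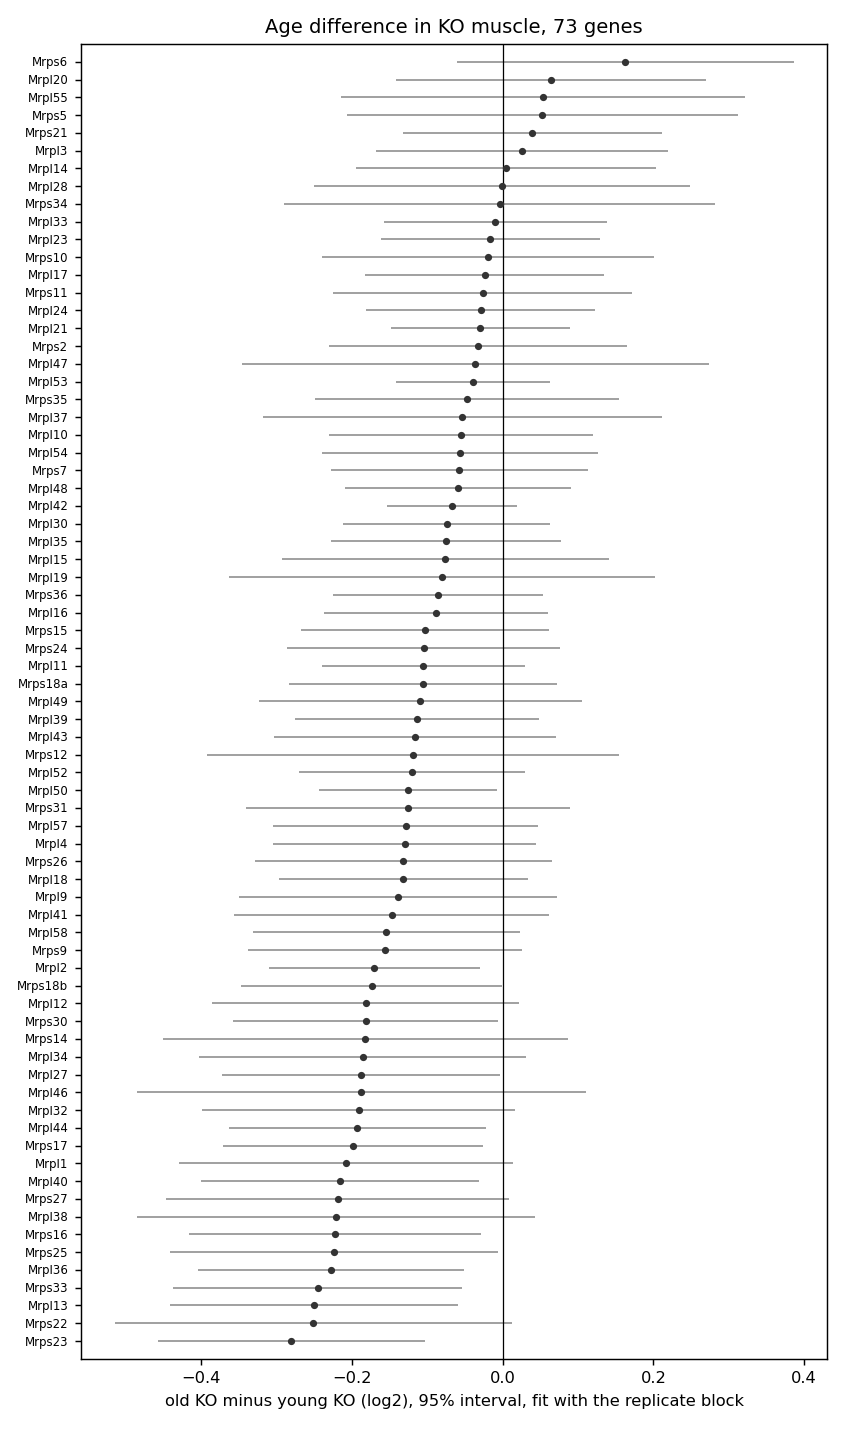
Old KO minus young KO (x axis, log2) for each of the 73 genes (y axis, ordered by difference), with 95% intervals from the limma fit with the replicate block. Points run from -0.28 for Mrps23 to 0.16 for Mrps6, and 14 intervals lie wholly below 0, before any adjustment for the number of genes tested.

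In control muscle, which asks what age did with Mfn2 present, 42 of 73 transcripts were lower at 22 months and 31 higher. The median was -0.014, against -0.0082 over all genes. It moved to -0.092 (62 lower) without young control mouse 3 and to 0.030 (24 lower) without old control mouse 3, and it was -0.096 with family and the block fitted, so its direction was not settled. No member passed limma's adjusted test with or without the replicate block, where 0% and 0.0468% of all genes passed. At an unadjusted p under 0.05 there were 0 members (2.12% of all genes), and 5 (6.85%, against 9.64%) with the block.

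Mrpl42, a large-subunit protein found only in mitochondria, had the smallest p. It read 10.83, 10.76, 10.86 and 10.84 in old control muscle, against 10.87, 10.87, 10.89 and 10.95 in young control muscle. All old mice lay below all young ones, as in 0.772% of genes, yet the difference was only -0.073, or 1.05-fold (SE 0.039, limma adjusted p = 0.9999). Mrpl47, the counterpart of bacterial L29 and a dim probe set, read 4.84, 5.16, 4.52 and 5.06, against 5.10, 5.95, 5.14 and 4.93 (difference -0.39, SE 0.24). Mrps34, a protein needed for a stable small subunit, went the other way, with 7.13, 7.72, 7.10 and 6.95 against 6.95, 7.12, 6.48 and 6.80. It was higher in the old mouse of each number (0.39, SE 0.26), though the groups overlapped. Mrpl36 read 8.42, 8.51, 8.23 and 8.36, against 8.64, 8.65, 8.56 and 8.46 (-0.20, SE 0.12), which is close to its difference in KO muscle. When family, which the labels also give, was fitted with the block, Mrpl47 stood at 0.023 in this comparison. The labels' families A and B occur among the old mice and never among the young, and families C and D the reverse.

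Over both genotypes, 64 of 73 transcripts were lower in old muscle, with a median of -0.070 against -0.0091 over all genes. Without old KO mouse 3 the median was -0.016 and 46 were lower, and with the replicate block as well -0.046 and 58. Again 0 members passed the adjusted limma test, where 0.0585% of all genes passed without the block and 0.579% with it. Unadjusted, 3 members (4.11%, against 3.52% of genes in either direction and 1.66% in the lower one) were lower, namely Mrpl42 (-0.070, SE 0.028), Mrpl36 (-0.21, SE 0.087) and Mrps23 (-0.17, SE 0.074). With the replicate block 8 members (11%) met that limit, all lower, against 11.7% of genes in either direction and 6.42% in the lower one. Mrpl36 came closest to the threshold under the block, with an adjusted p of 0.139 from limma. Mrps33 (-0.19, SE 0.096) and Mrpl34 (-0.17), a large-subunit protein with a bacterial counterpart, followed, and Mrps34 was the highest at 0.19 (SE 0.18).

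**Figure D4:**
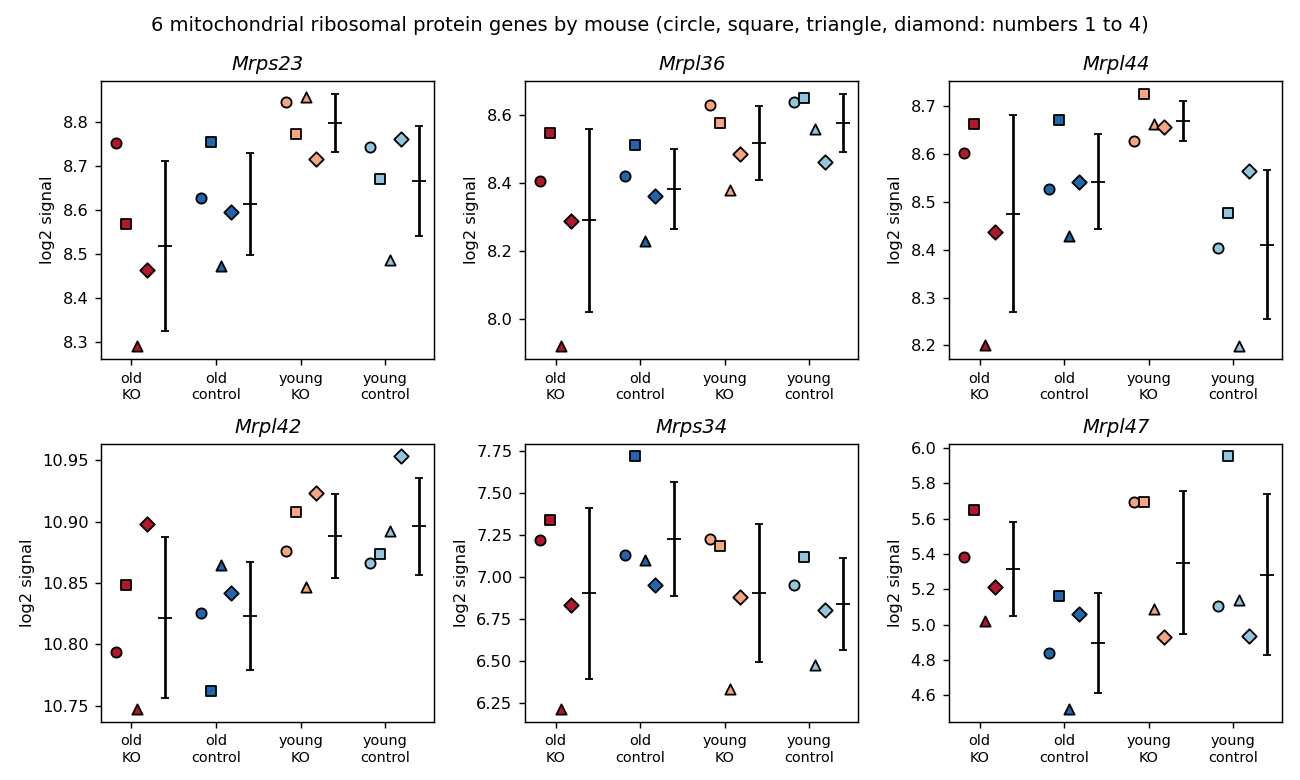
Log2 signals (y axes, each with its own scale) of Mrps23, Mrpl36, Mrpl44, Mrpl42, Mrps34 and Mrpl47 in the 4 groups (x axes). Symbols give the replicate number and black bars the mean ± SD of 4 mice. Mrpl36 is lower in both old groups on average, Mrpl44 is separated between young KO and young control, Mrpl42 between old control and young control, and Mrps34 and Mrpl47 vary by over 1 log2 unit between mice.

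The next comparison asked what loss of Mfn2 did in old muscle. Of the 73 transcripts 60 were lower in old KO than in old control muscle and 13 higher, with a median of -0.074 against -0.0041 over all genes. It shares the old KO arrays with the age comparison in KO muscle, so both read the same 4 mice. No member passed the adjusted limma test with or without the replicate block, and 0% of all genes did in either fit. Unadjusted, 0 members stood out (1.14% of genes), and 6 (8.22%, against 6.62%) with the block.

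Mrpl47 had the smallest p and was higher, at 5.38, 5.65, 5.02 and 5.21 in old KO muscle, against 4.84, 5.16, 4.52 and 5.06 in old control muscle. This comparison and that of age in control muscle both read the low old control values. Each old KO mouse exceeded the control of its number, but the groups overlapped (0.42, SE 0.24, and limma adjusted p = 0.701 under the block). Mrps34 was the lowest, at 7.22, 7.34, 6.22 and 6.84, against 7.13, 7.72, 7.10 and 6.95. Number 1 was higher in KO and number 3 far lower (-0.32, SE 0.26). Mrpl55, of the large subunit, read 7.94, 7.88, 7.31 and 7.97, against 8.14, 8.44, 8.03 and 7.77 (-0.32, SE 0.19). Mrps18b of the small subunit read 8.58, 8.60, 8.10 and 8.24, against 8.56, 8.78, 8.57 and 8.49 (-0.22, SE 0.13), and Mrpl50 of the large subunit differed by -0.12 (SE 0.075). Mrps34 stood at 0.00876 and Mrpl55 at 0.025 once family was fitted with the block. Among the old mice, family B occurs only in controls and family A mostly in KO mice, so that fit separates family from genotype poorly.

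Within numbers the median was 0.039 in number 1, -0.045 in number 2, -0.24 in number 3 and -0.066 in number 4. Lower in all 4 numbers were 7 members (9.59%, against 7.08% of genes), among them Mrpl58 and Mrpl50, and higher in all 4 were Mrpl47 and Mrps6 (2.74%, against 6.46% of genes). Without old KO mouse 3 the median was 0.031 and 25 of 73 were lower, so the direction turned, whereas with the replicate block as well it was -0.019 and 47 were lower.

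In young muscle the set leaned the other way, with 49 of 73 transcripts higher in KO than in control. The median was 0.027, against -0.0056 over all genes and 0.022 over genes at or above the median level. Over the members' 56 other probe sets the median was -0.013, with 31 of them lower in KO. No member passed the adjusted limma test in either fit, and neither did any other gene (0%). Mrpl44 alone met the unadjusted limit (1.37% of members, against 1.70% of genes in either direction and 1.0% in the higher one), and 5 members (6.85%, against 9.43%) did with the block.

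Mrpl44, a large-subunit protein with a domain related to RNase III, read 8.63, 8.73, 8.66 and 8.66 in young KO muscle, against 8.40, 8.48, 8.20 and 8.56 in young control muscle. All young KO mice exceeded all young controls, as in 0.661% of genes, by 0.26 or 1.20-fold (SE 0.11, limma adjusted p = 1, and 0.392 with the block). Its second probe set gave 0.097. In old muscle the same transcript read 8.60, 8.66, 8.20 and 8.44 in KO, against 8.53, 8.67, 8.43 and 8.54 in control, and the groups overlapped. Mrpl1, which has a bacterial counterpart in the stalk by which transfer RNA leaves, was higher by 0.27 (SE 0.16), though its dimmer probe sets gave -0.11 and -0.078. Mrpl33 was higher by 0.15 (SE 0.12). Mrps21 differed by -0.24 (SE 0.17). Within numbers the set's median was 0.043, -0.011, 0.070 and -0.018 in numbers 1 to 4. It was 0.086 without young KO mouse 3 and -0.048 without young control mouse 3.

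**Figure D5:**
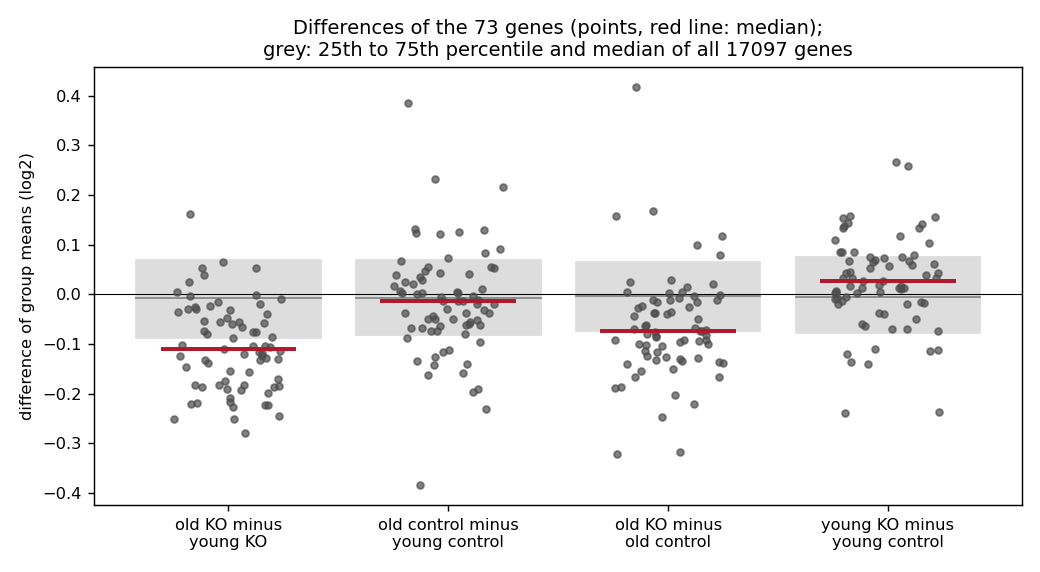
Differences of group means (y axis, log2) for the 73 genes (points, red line at their median) in the 4 comparisons of 2 groups (x axis). Grey boxes span the 25th to 75th percentile of all 17097 genes, with a grey line at their median. The red lines stand at -0.11, -0.014, -0.074 and 0.027 from left to right.

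Whether the genotype difference itself changed with age was tested as an interaction, and 0 of 73 members passed (0% of all genes passed in either fit). Unadjusted, 0 members (1.13% of genes) met the limit without the block and 6 (8.22%, against 7.24%) with it. The interaction term was negative for 56 members with a median of -0.095, against -0.0013 over all genes and -0.033 over genes at or above the median level. For Mrpl44 it was -0.32 (SE 0.16, limma adjusted p = 0.9999). The extremes were Mrpl46 of the large subunit at -0.40 (SE 0.29) and Mrps6 at 0.39 (SE 0.35). Without old KO mouse 3 the median was 0.018, and with the replicate block as well it was -0.043, with 46 members below 0. For genotype averaged over both ages 0 members passed (0% of genes). Unadjusted, 0 members (1.55% of genes) met the limit there, and 4 (5.48%, against 8.47%) with the block. Of the 73 members 50 were lower, with a median of -0.023, which turned to 0.021 (28 lower) without old KO mouse 3 and was -0.0022 (40 lower) without it under the replicate block. Mrpl55 (-0.23, SE 0.14) and Mrpl33 (0.14, SE 0.083) had the smallest p there.

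The 95% intervals show which sizes of difference these data leave possible. In each of the 4 comparisons of 2 groups, the interval of all 73 members lay within 1 log2 unit, or 2-fold. Within 0.5 log2 units, or 1.41-fold, lay 45 members for age in KO muscle, 54 for age in control muscle, 49 for genotype in old muscle and 49 for genotype in young muscle. With the replicate block those counts were 72, 69, 69 and 73. The median half-width was 0.32 without and 0.18 with the block. These intervals hold for each gene singly and are not adjusted over the set.

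By structural class, the age difference in KO muscle was below 0 for 25 of 29 large-subunit proteins with bacterial counterparts (median -0.076) and for all 19 large-subunit proteins found only in mitochondria (median -0.12). It was below 0 for 11 of 14 small-subunit proteins with bacterial counterparts (median -0.080) and for all 10 found only in mitochondria (median -0.20). Among the latter were Mrps23, Mrps33 and Mrps18b, and also Mrps34, which was nearly level at -0.0039. For genotype in old muscle the counts were 23 of 29, 17 of 19, 10 of 14 and 10 of 10 in that order. The classes were not tested against each other, and 0 members of any class passed the adjusted test. For age in KO muscle, 22 of the 23 members with a promoter motif were below 0 (median -0.11) and 36 of the 42 without one (median -0.11).

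Several members have a role or place that their name does not give. Mrps30 and Mrps18a sit in the large subunit despite their names. Mrps30 read 6.29, 6.44, 5.44 and 5.79 in old KO, 6.34, 6.53, 5.67 and 5.60 in old control, 6.45, 6.53, 5.71 and 5.99 in young KO, and 6.31, 6.51, 5.54 and 5.78 in young control muscle. Mice 1 and 2 were high and mice 3 and 4 low in each group, and the group means of 5.99, 6.04, 6.17 and 6.03 lay close together. Mrps18a differed by -0.11 with age in KO muscle and by -0.10 with genotype in old muscle.

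Mrpl58, which releases peptides from stalled ribosomes, read 8.21, 8.40, 7.63 and 7.84 in old KO, against 8.23, 8.45, 8.00 and 7.93 in old control muscle (-0.13). In young KO it read 8.29, 8.38, 7.89 and 8.14, against 8.24, 8.44, 7.89 and 8.20 in young control muscle (-0.018). Every old KO mouse lay below the control of its number, by little in numbers 1 and 2. Mrps12, the counterpart of a bacterial protein at the decoding site, averaged 7.74 ± 0.30, 7.77 ± 0.24, 7.86 ± 0.32 and 7.80 ± 0.30 in old KO, old control, young KO and young control muscle (SD, n = 4 each).

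Mrps5, whose counterpart limits lifespan in Caenorhabditis elegans, read 6.89, 7.26, 5.84 and 6.47 in old KO and 6.66, 7.06, 6.09 and 6.25 in old control muscle. It read 6.66, 7.29, 6.02 and 6.28 in young KO and 7.10, 6.98, 5.73 and 6.31 in young control muscle. Its age differences were 0.053 in KO and -0.014 in control muscle, inside a spread between mice of about 1 log2 unit in each group. For age in KO muscle its other probe sets gave 0.032, -0.27 and -0.024, so the probe sets disagreed in sign. Mrps36, now known as a subunit of the 2-oxoglutarate dehydrogenase complex and not of the ribosome, lay between 9.01 and 9.25 in all 16 mice. It averaged 9.12 ± 0.068, 9.10 ± 0.10, 9.20 ± 0.047 and 9.20 ± 0.016 in the same order of groups.

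The genes that serve the same ribosome were read from 7 lists with 99 measured genes outside the set. Without the block 0 of the 99 passed in any comparison, where at most 0.0585% of all genes passed. For age in KO muscle the 4 ribosomal proteins with other names had differences of -0.18 (Dap3), -0.28 (Ptcd3), -0.020 (Chchd1) and -0.0034 (Gadd45gip1), the last 2 close to 0. Of the translation factors 8 of 9 were below 0 (-0.23). Of the genes that assemble the ribosome or modify its RNA, 18 of 21 were below 0 (-0.14), and of those for mitochondrial transcription, replication and RNA processing 18 of 20 (-0.12). The aminoacyl-tRNA synthetases, which charge transfer RNAs, were nearer to even with 13 of 20 below 0 (-0.064). So were the nuclear regulators with 7 of 10 (-0.036). Of the list that joins mitochondrial unfolded protein response and integrated stress response genes, 9 of 15 were below 0 (-0.057). For genotype in old muscle 20 of 21 assembly genes were below 0 (-0.10), and 10 of 15 genes of the joint stress response list were above it (median 0.056). Those of that list below 0 were Lonp1, Clpp, Hspa9, Dnaja3 and Atf4.

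With the replicate block a single gene of the 99 passed, for age over both genotypes, where 0.579% of all genes passed. Ppargc1b, which encodes the coactivator PGC-1 beta, fell with age over both genotypes by 0.62 on the log2 scale (SE 0.13, limma adjusted p = 0.0456 with the block). Without the block the SE was 0.24 and the adjusted p was 0.9999. Its log2 signals were 6.80, 7.02, 5.71 and 6.01 in old KO, against 7.53, 7.65, 6.77 and 7.03 in young KO muscle. In control muscle they were 6.03, 7.03, 6.13 and 6.53 in old, against 7.08, 7.26, 5.96 and 6.97 in young mice. It was lower in the older mouse of every number in KO muscle and of 3 of 4 numbers in control muscle. Malsu1, which binds the large subunit during assembly, was higher with age over both genotypes by 0.42 (SE 0.089 with the block, limma adjusted p = 0.0539) and missed the threshold.

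The transcripts of the set moved together from mouse to mouse. After group and replicate number means were removed, the median Pearson r of a member with the mean of the others over the 16 arrays was 0.572, and the genes at or above the median level had a median r of 0.0578 with the same mean. Mrps17 was highest at 0.957 and Mrpl19 lowest at -0.573, and 66 of 73 were positive. Outside the set the genes most like its mean were Isca2 (0.951), an iron-sulphur cluster assembly factor, Bcs1l (0.945), an assembly factor of respiratory complex III, and Ndufs8 (0.941), a subunit of complex I. Atp5j (0.937), a subunit of ATP synthase, and Ndufs3 (0.928), a subunit of complex I, also ranked among the first 10. With group means alone removed, the median r was 0.871 for members and 0.732 for genes at or above the median level. The genes most like the mean were then others, led by Mmachc (0.987), Scap (0.985) and Gfm2 (0.984). These values describe 16 arrays, on each of which all genes share 1 RNA sample and 1 hybridisation.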

How the data were processed

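Values were deposited on the log2 scale, 1 per probe set, and RMA and the affy package are named in the submitters' processing notes, with no versions given in the sources used here. Per the labels' protocols, 25 ng of total RNA was amplified as cDNA before labelling. All 16 columns of the deposited log2 table were used, 1 mouse each. RMA usually includes quantile normalization, after which a change common to most genes cannot be seen, yet the SD over probe sets still differed between arrays, from 1.71 to 1.94. After removal of 104 control probe sets 45037 remained, of which 28898 had 1 gene symbol, 551 several and 15588 none. The brightest probe set of each of 17097 genes was used, with no filter on level. The members had 129 probe sets with 1 symbol, and 6 with several symbols were not used. Mrpl22, Mrpl45, Mrpl51, Mrps18c and Mrps28 were not analysed here. All 73 gene IDs were in the RefSeq table with the same symbol.

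All 16 arrays were fitted in limma 3.58.1 (R 4.3.3) with 1 mean per group, empirical Bayes with a trend and two-sided p-values adjusted by Benjamini-Hochberg across the 17097 genes. The scripts were tested on simulated data. Differences are older minus younger and KO minus control. Mfn2 was compared by an exact permutation test over all 70 splits. Arrays of different groups with the same replicate number correlated between 0.289 and 0.780 after group means were removed (median 0.677 over 24 pairs), whereas the median was -0.455 between different numbers, so the number pairs the mice and was also fitted as a block. Mice are separate animals, and the number of arrays limits precision.

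Named were, per comparison, the 5 members with the smallest p and those with the largest rise and fall, members with a special role or place, and of each list the genes called or with the smallest p, of which a selection is described. All 4 measured genes of the list of other-named ribosomal proteins are named, and that list leaves out Mrpl57 and Mrpl58, which are members. The members and lists were chosen with earlier results of these data known. Alternatives were the replicate block, family, centred arrays, other probe sets, a filter on level, subsets of numbers and each array left out. Figures were drawn with matplotlib 3.10.9.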

Additional observations from a re-analysis of the deposited data

Results flagged for a closer look

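Among 100 groups of 4 mice examined for the named members, the median of the members, Mfn2 and Mfn1, 6 had a mouse far from the other 3, by a gap that exceeded 0.829 of the group's range; chance gives about 1 in 20. Old KO mouse 3 was low for Mrpl1 (8.21, others 8.62 to 8.68), for Mrpl55 (7.31, others 7.88 to 7.97) and for Mfn2 itself (6.32, others 8.01 to 8.32). Old control mouse 2 was high for Mrps33 (9.37, others 8.996 to 9.03). Young control mouse 3 was low for Mrps33 (8.98, others 9.29 to 9.34) and for Mrpl46 (7.12, others 7.65 to 7.68). Of the 6 readings, 5 came from mice with replicate number 3.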

How the results depend on the processing

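In all 45 alternatives, 32 of which left out 1 array, 0 of 73 members passed limma's adjusted test in any comparison, and the smallest adjusted p of a member in any of them was 0.117, for age over both genotypes. The set's medians were less stable. With family and the replicate block fitted, the median for age in control muscle was -0.096, that for genotype in old muscle was 0.0086, and members below 0 for genotype in old muscle numbered 35, against 60 without these terms. Of the named genes 3 changed sign under that setting, Mrpl47 for age in control muscle (0.023) and Mrpl55 (0.025) and Mrps34 (0.00876) for genotype in old muscle. Family is largely confounded with age, and among the old mice with genotype. Mice labelled Other, present in all 4 groups, were fitted as 1 family. The parts of family, age and genotype in these sign changes cannot be told apart. With replicate numbers 3 and 4 alone, with or without the block, the median for genotype over both ages was -0.076. Each array left out in turn, without the block, gave medians from -0.048 to 0.086 for genotype in young muscle, -0.15 to 0.031 for genotype in old muscle, -0.092 to 0.030 for age in control muscle and -0.18 to -0.012 for age in KO muscle. With the replicate block these were -0.0021 to 0.052, -0.11 to -0.019, -0.043 to 0.0085 and -0.14 to -0.067. The cause of these shifts was not tested. Over all genes, 10 were called for age over both genotypes, against 99 with the replicate block, and for age in control muscle 0 against 8. Some alternatives, those with the block combined with another choice, were added after seeing the data. With 4 mice per group, the unadjusted 95% interval of a typical member reached 0.32 log2 units to either side, or 0.18 with the block. Passing the test adjusted over all genes takes larger differences than these, so true differences of that size could also have been missed.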
